A study of Mus musculus with 12 samples.

Results

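The collagen chain genes of CD8+ T cells are described here. They were taken as every symbol in the first column of the deposited count table that reads Col, a number, the letter a and a number. This rule found 44 genes among 55291 symbols and used no measured value, though earlier results of these data were known when it was chosen. The cells were isolated from the spleens and lymph nodes of WT (wild-type) male mice, and bulk RNA was sequenced after depletion of ribosomal RNA. There were 4 groups of 3 libraries. Rat tail collagen cells and bovine collagen cells received anti-CD3 bound to the plate and CD28 in solution for 2 days, were expanded for 1 day with recombinant interleukin 2 and were embedded on day 3 for 24 h in a gel of 2 mg/mL collagen from the named source. Media cells had the same activation and expansion and spent those 24 h in liquid medium, and RNA of these 3 groups was taken on day 4. Naive cells were lysed on day 0 without activation. The collagen of a gel is protein from another species, while the counts are reads assigned to mouse genes. The labels give n = 3 per group and do not say whether a replicate number marks the same mouse in each group, so the p-values measure the spread between these libraries.

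Collagens are extracellular proteins built from 3 chains wound into a triple helix. Fibrillar collagens form the load-bearing fibrils of skin, bone, tendon and cartilage, network collagens the sheets of basement membranes, and the remaining classes coat fibrils, anchor epithelia or sit in the cell membrane. A chain is hydroxylated on prolines and lysines in the endoplasmic reticulum, folds there with specialised chaperones, is trimmed by procollagen proteases after secretion and is cross-linked by lysyl oxidases. Fibroblasts, osteoblasts and chondrocytes are the textbook producers, and T cells are not counted among them. The 44 genes fall into 11 fibrillar, 9 network, 9 fibril-associated, 8 beaded filament or anchoring, 4 transmembrane and 2 multiplexin genes, and 1 other gene, Col26a1.

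The windows before the start sites of 4 members are shown because these genes carry the main contrasts: Col5a1 and Col27a1 are fibrillar chain genes that were higher in rat tail gel, Col11a2 was the most abundant chain per length in every group, and Col23a1 moved the other way. Each window holds 250 bases before and 50 bases after a start site of the gene in RefSeq on GRCm38.p6, read on the plus strand. For Col11a2 and Col27a1 this site is not the gene start in GENCODE M21 (34039437 and 63214004), which the gene locations below use. They lie at chr2:27886175-27886474 for Col5a1, chr4:63215162-63215461 for Col27a1, chr17:34038888-34039187 for Col11a2 and chr11:51289670-51289969 for Col23a1. Capitals mark GC boxes (GGGCGG on either strand) and the TATA box (TATAAA on either strand), and none of the marked letters overlap.
Col5a1: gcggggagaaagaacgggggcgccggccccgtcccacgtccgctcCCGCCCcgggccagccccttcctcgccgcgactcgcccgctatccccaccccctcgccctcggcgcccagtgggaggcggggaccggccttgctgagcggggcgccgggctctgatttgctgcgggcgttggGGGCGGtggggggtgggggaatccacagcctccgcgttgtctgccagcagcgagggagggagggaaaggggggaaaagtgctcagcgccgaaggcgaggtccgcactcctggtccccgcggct
Col27a1: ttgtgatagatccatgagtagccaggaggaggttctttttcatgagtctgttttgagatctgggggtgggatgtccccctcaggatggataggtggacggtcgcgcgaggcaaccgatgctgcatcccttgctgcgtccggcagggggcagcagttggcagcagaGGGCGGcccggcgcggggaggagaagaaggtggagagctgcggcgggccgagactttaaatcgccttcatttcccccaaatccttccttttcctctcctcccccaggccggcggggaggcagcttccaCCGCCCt
Col11a2: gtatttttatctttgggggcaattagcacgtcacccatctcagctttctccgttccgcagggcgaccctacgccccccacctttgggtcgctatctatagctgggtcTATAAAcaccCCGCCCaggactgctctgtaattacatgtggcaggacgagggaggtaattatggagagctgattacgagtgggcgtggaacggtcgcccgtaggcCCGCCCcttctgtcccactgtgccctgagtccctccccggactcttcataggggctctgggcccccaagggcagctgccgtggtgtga
Col23a1: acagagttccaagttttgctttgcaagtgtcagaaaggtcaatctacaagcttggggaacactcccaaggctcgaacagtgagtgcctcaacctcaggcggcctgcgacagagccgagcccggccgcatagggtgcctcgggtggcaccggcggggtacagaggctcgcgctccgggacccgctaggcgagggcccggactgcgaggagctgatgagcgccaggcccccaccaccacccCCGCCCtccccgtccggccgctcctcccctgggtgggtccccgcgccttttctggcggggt
Col5a1, Col27a1 and Col11a2 each held 2 GC boxes and Col23a1 held 1, and the single TATA box was in Col11a2. Promoter windows were found for 35 of the 44 members, 38 windows in all. A GC box was in a window of 22 of the 35, against 35.7% of all 32851 windows. CCAAT was found for 13 members (37.4% of all windows), TATAAA for 5 (13.6%) and the AP-1 site TGACTCA for 1 (5.20%), each searched on both strands. Of the 14 members with a higher call in rat tail gel against media, 9 had a window, and 8 of these held a GC box. Members are counted per gene, over any of their windows, while the percentages beside them are per window, so the 2 are not on the same scale. These matches describe letters in a window.

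Library totals lay between 28483064 counts (bovine collagen 2) and 53138362 counts (media 1). Genes of ribosomal RNA took 5.03% to 13.2% of counts in rat tail collagen libraries and 5.5% to 11.9% in bovine collagen libraries, against 4.45% to 4.72% in media libraries and 3.96% to 5.67% in naive libraries. The CD8 T cell list (Cd3d, Cd3e, Cd3g, Cd8a, Cd8b1, Cd2, Lck and Cd5) was present in every library, at summed levels of 2429 to 2636 CPM (counts scaled to a library of 1000000) in rat tail collagen, 3248 to 3555 in bovine collagen, 3208 to 3631 in media and 4251 to 4961 in naive cells.

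Collagen chain RNA was detected in all groups at low levels. At least 1 count was found for 43 of the 44 genes, and Col9a1 had none in any library. A count in each of the 3 libraries was seen for 25 genes in rat tail collagen, 17 in bovine collagen, 19 in media and 24 in naive cells. A like pattern was present over all symbols of the count table. Rat tail libraries had a count for 27708 to 29861 symbols and naive libraries for 27120 to 29580. Media libraries had one for 26097 to 26237 and bovine libraries for 24336 to 25546. The detection counts are thus not a trait of collagen genes alone. Taking a mean of 0.5 CPM as the line for expression, 15 genes passed it in rat tail collagen, 8 in bovine collagen, 7 in media and 8 in naive cells. Together 17 genes passed it in at least 1 group and 5 in all 4, and 27 never did. Of the 17 genes, 13 had their highest mean in rat tail collagen, 0 in bovine collagen, 1 in media (Col15a1) and 3 in naive cells (Col23a1, Col20a1 and Col14a1). Since these are bulk samples, fewer cells of a type and less RNA per cell cannot be told apart.

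Summed over the 44 genes, the level was 83.7 ± 2.57 CPM in rat tail collagen, 36.8 ± 5.87 CPM in bovine collagen, 34.8 ± 3.53 CPM in media and 55.8 ± 4.98 CPM in naive cells (SD, n = 3 libraries each). The rat tail libraries stood at 86.7, 82.5 and 82.0 CPM, the bovine libraries at 33.5, 33.3 and 43.6, the media libraries at 31.7, 34.2 and 38.7, and the naive libraries at 61.3, 51.6 and 54.5. The rat tail libraries were above all others, the naive libraries came next, and the bovine and media libraries overlapped. Col11a2 alone made up 44.1%, 46.3%, 43.2% and 39.2% of these sums in rat tail collagen, bovine collagen, media and naive cells. The fibrillar class held most of the difference, with 53.9 ± 2.46 CPM in rat tail collagen, 18.8 ± 3.47 in bovine collagen, 16.5 ± 2.05 in media and 24.1 ± 3.43 in naive cells. The transmembrane class, nearly all of it Col23a1, ran the other way, with 4.04 CPM in rat tail collagen, 5.84 in bovine collagen, 6.65 in media and 14.6 in naive cells, while Col17a1 of the same class was higher in rat tail collagen (46 counts, against 11 in media).

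The first comparison asked how activated cells in rat tail gel differed from those in liquid medium. The fibrillar chain genes Col1a1, Col27a1 and Col11a2 and the multiplexin gene Col18a1 were higher in rat tail collagen, as was Col5a1, while Col23a1 and Col15a1 were lower. Of the 44 members, 17 passed the filter on low counts, 14 were called higher and 2 lower, and Col20a1 was not called (edgeR quasi-likelihood test, Benjamini-Hochberg adjusted p under 0.05). Over all 19392 genes tested, 29.7% were called higher and 28.7% lower. The median log2 fold change of the 17 members was 2.64, against -0.01 over all genes tested. However, 7 of the 14 higher members (Col2a1, Col5a1, Col5a2, Col6a1, Col6a2, Col8a2 and Col12a1) passed the filter only through the rat tail libraries, where they are high. They had to differ to be tested, so their calls and these counts give no support. The other 7 higher members, both lower ones and Col20a1 passed without them. The same 14 and 2 members had groups that did not overlap, as did 33.5% of all genes in the higher and 31.3% in the lower direction.

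**Figure D1:**
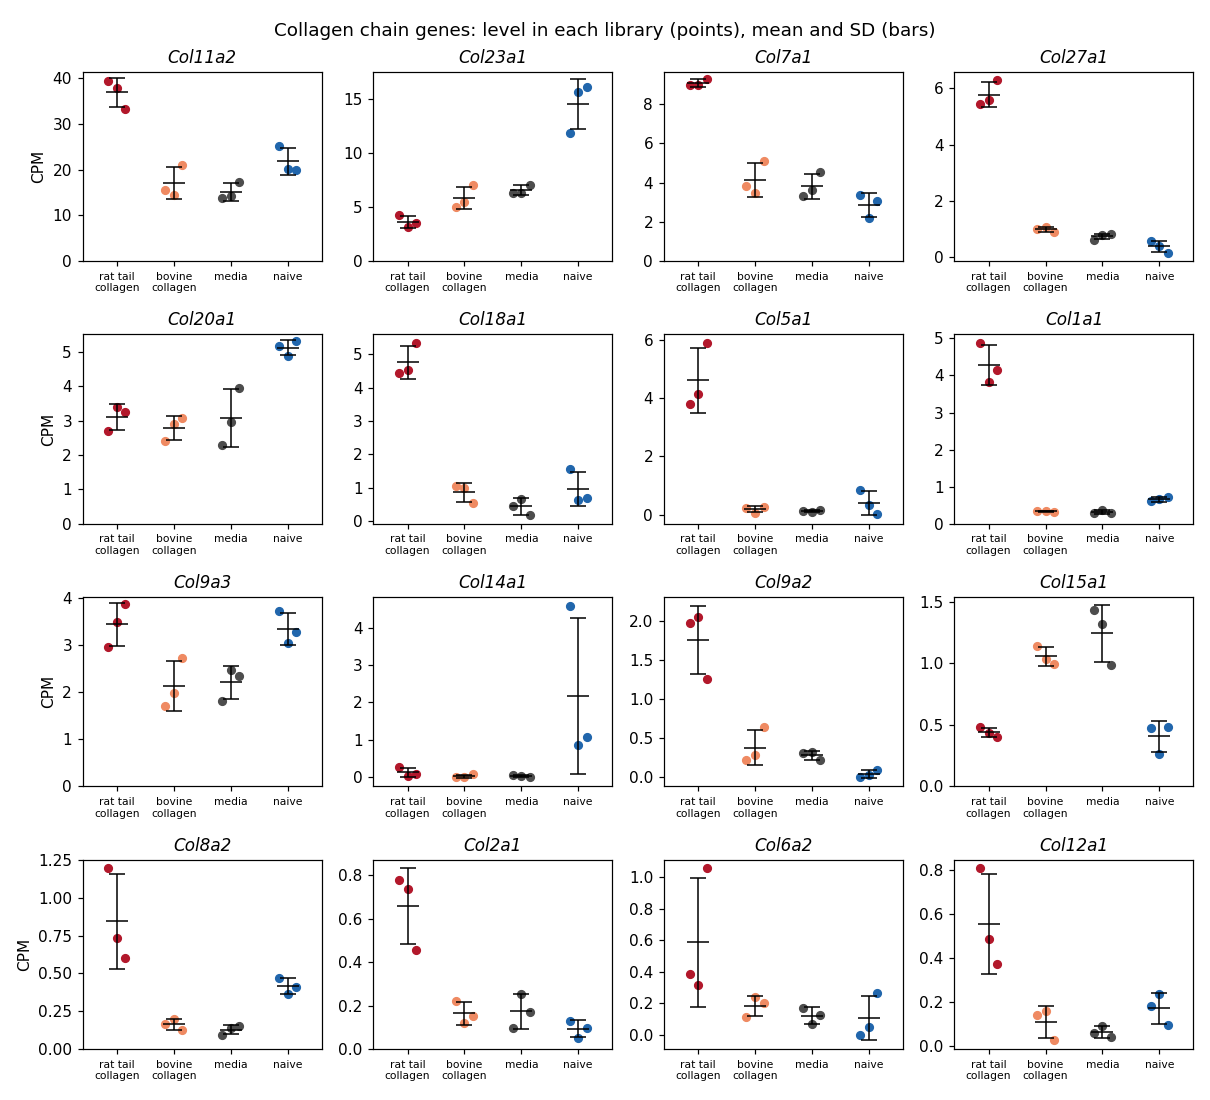
Level of 16 collagen chain genes in CPM (vertical axes, each panel includes 0) in every library (points) of rat tail collagen, bovine collagen, media and naive cells, with the mean and SD of 3 libraries as bars. Col1a1, Col5a1, Col18a1 and Col27a1 sit above 3.5 CPM in the rat tail libraries and below 2 CPM in all others, and Col23a1 averages 3.63 CPM in rat tail collagen and 14.5 CPM in naive cells.

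Of the 11 fibrillar genes, 6 passed the filter and were called higher, and 3 of these (Col2a1, Col5a1 and Col5a2) passed only through the rat tail libraries. Col1a1, the main chain of type I collagen of bone and tendon, had 4.88, 3.83 and 4.14 CPM in rat tail collagen, against 0.286, 0.369 and 0.278 CPM in media. Each rat tail library was above each media library, with a log2 fold change of 3.76 ± 0.21 (SE) and an adjusted p of 7.8e-08. Col1a1 lies at chr11:94936224-94953042 (GENCODE M21, GRCm38). Col5a1, a chain of type V collagen, which starts fibrils of type I, had 3.80, 4.14 and 5.88 CPM in rat tail collagen, against 0.134, 0.115 and 0.171 CPM in media. Its gene lies at chr2:27886425-28039514, and the log2 fold change of 5.0 ± 0.32 (adjusted p = 2.3e-07) is a 31.9-fold higher level in a gene that was tested only because its rat tail libraries were high. Its smallest rat tail value was far above its largest media value.

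Col27a1 encodes a fibrillar chain of cartilage and lies at chr4:63214004-63334991. It had 5.44, 5.59 and 6.28 CPM in rat tail collagen, against 0.630, 0.784 and 0.812 CPM in media. This was 7.72-fold higher (log2 fold change 2.95 ± 0.17, adjusted p = 1.1e-07). Col11a2 is a chain of type XI collagen, a component of cartilage fibrils, and lies at chr17:34039437-34066685. It had 39.4, 38.0 and 33.4 CPM in rat tail collagen, against 13.7, 14.2 and 17.3 CPM in media, with a log2 fold change of 1.29 ± 0.14 (adjusted p = 1.2e-05). Its means were 36.9 ± 3.14 CPM in rat tail collagen and 15.1 ± 1.94 CPM in media (SD, n = 3), the highest of the 44 genes in both groups.

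Col2a1, the chain of cartilage type II collagen, had 0.778, 0.737 and 0.457 CPM in rat tail collagen, against 0.0954, 0.254 and 0.171 CPM in media (log2 fold change 1.94 ± 0.38, adjusted p = 9.9e-04). The groups were apart, with 86 counts over the rat tail libraries and 24 over the media libraries. Col5a2, the partner of Col5a1, had 14, 16 and 31 counts in rat tail collagen, against 0, 1 and 0 in media. Its level was 67.8 times as high in rat tail collagen, with an exact 95% interval of 11.7 to 2722 that covers counting error only.

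**Figure D2:**
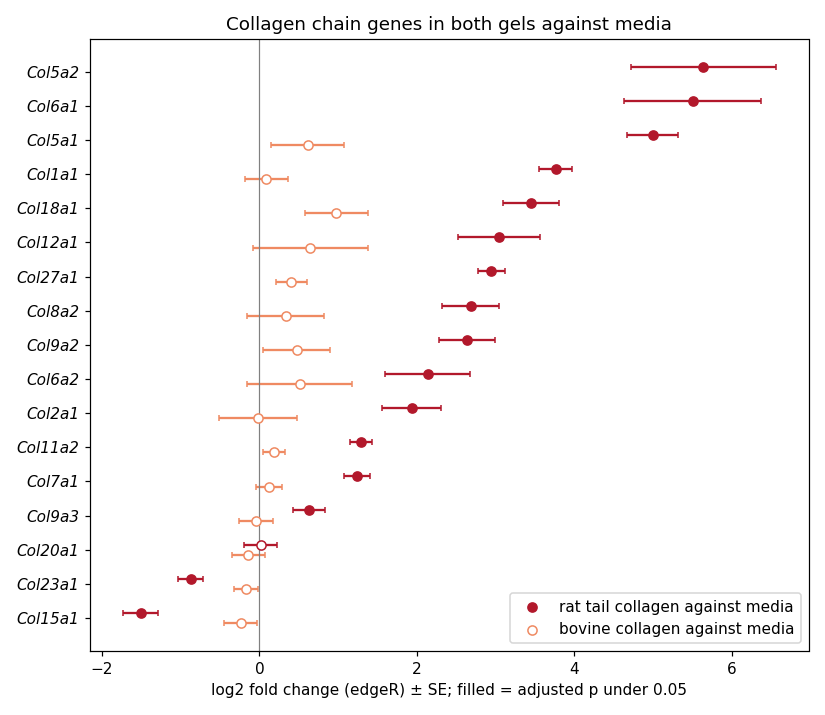
Log2 fold change with SE (horizontal axis) of the collagen chain genes that passed the filter, in rat tail collagen against media (red) and in bovine collagen against media (orange), filled where the adjusted p was under 0.05. The red points run from -1.51 (Col15a1) to 5.64 (Col5a2), and the bovine points lie between -0.24 and 0.98. Col5a2 and Col6a1 are fitted on a single media count and have no bovine point.

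The other classes held fewer genes past the filter. Col18a1, a basement membrane chain whose end is released as endostatin, lies at chr10:77052178-77166548 and had 4.43, 4.54 and 5.34 CPM in rat tail collagen, against 0.458, 0.669 and 0.171 CPM in media. It rose by a log2 fold change of 3.45 ± 0.35 (adjusted p = 7.9e-06). Col7a1 forms the anchoring fibrils below the epidermis, lies at chr9:108953586-108984875 and had 8.94, 8.96 and 9.28 CPM in rat tail collagen, against 3.32, 3.6 and 4.53 CPM in media. All its rat tail libraries were above its media libraries, with a log2 fold change of 1.24 ± 0.16 (adjusted p = 5.4e-05). Col8a2, a network chain of the corneal endothelium, had 1.20, 0.737 and 0.600 CPM in rat tail collagen, against 0.0954, 0.138 and 0.150 CPM in media (log2 fold change 2.68 ± 0.36, adjusted p = 7.1e-05).

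The fibril-associated chains Col9a2 and Col9a3 belong to type IX collagen of cartilage. Col9a2 had 1.97, 2.04 and 1.26 CPM in rat tail collagen, against 0.305, 0.323 and 0.214 CPM in media, a log2 fold change of 2.64 ± 0.35 (adjusted p = 6.6e-05). Col9a3 had 2.96, 3.50 and 3.88 CPM in rat tail collagen, against 1.81, 2.47 and 2.35 CPM in media. The groups were apart by a narrow margin, and the call of Col9a3 (log2 fold change 0.63 ± 0.21, adjusted p = 0.02) was lost without media 1, rat tail collagen 2 or rat tail collagen 3, and with offsets for GC content and length (0.29, adjusted p = 0.249). Col9a3 also shares 6.07% of its exonic bases with Tcfl5 on the opposite strand, which had 106 counts in the 12 libraries, and the strand setting of the counting is not given in the sources used here. Col12a1, a fibril-associated chain of tendon, had 0.808, 0.486 and 0.371 CPM in rat tail collagen, against 0.0573, 0.0922 and 0.0427 CPM in media (log2 fold change 3.04 ± 0.52, adjusted p = 4.0e-04).

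Type VI collagen forms beaded filaments around cells. Col6a2 had 0.389, 0.318 and 1.06 CPM in rat tail collagen, against 0.172, 0.0692 and 0.128 CPM in media, and rat tail collagen 3 stood well above the other rat tail libraries. Its log2 fold change was 2.14 ± 0.54 (adjusted p = 0.0051), and it was 1.45 (adjusted p = 0.0198) without rat tail collagen 3. Without the 3 libraries of highest ribosomal RNA share it was 1.32 and not called, with rat tail collagen 2 the only rat tail library left. Col6a1 had 10, 20 and 27 counts in rat tail collagen, against 0, 1 and 0 in media, a ratio of 63.4 with an exact 95% interval of 10.9 to 2547.

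The lower genes were Col23a1 and Col15a1. Col23a1 encodes a transmembrane collagen and lies at chr11:51289920-51583918. It had 4.25, 3.15 and 3.48 CPM in rat tail collagen, against 6.34, 6.30 and 7.07 CPM in media, a log2 fold change of -0.87 ± 0.16 (adjusted p = 6.5e-04). Col15a1, a multiplexin of basement membrane zones and the closest relative of Col18a1, lies at chr4:47208161-47313167 and had 0.479, 0.435 and 0.400 CPM in rat tail collagen, against 1.43, 1.31 and 0.983 CPM in media. It fell 2.85-fold (log2 fold change -1.51 ± 0.23, adjusted p = 1.5e-04), so the 2 multiplexin genes moved in opposite directions. Col20a1, a fibril-associated chain, had 2.69, 3.40 and 3.25 CPM in rat tail collagen, against 2.29, 2.97 and 3.95 CPM in media (log2 fold change 0.02 ± 0.21, adjusted p = 0.954), and the groups overlapped.

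The tested members were longer and richer in GC than most genes. Their median GC content was 58.9%, against 49.3% over all genes tested with known values, and their median exon length was 6874 bases, against 3167 bases. With offsets for both properties, 13 members were called higher and 2 lower, and Col9a3 was the call that was lost. The log2 fold change of Col11a2 was then 0.80 (adjusted p = 0.0012) and that of Col7a1 0.74 (adjusted p = 0.002), while Col1a1 stood at 3.46 and Col5a1 at 4.70. Bovine collagen 2 and rat tail collagen 1 and 3 were the libraries with the most ribosomal RNA. Without them, rat tail collagen 2 was the only rat tail library. Such a fit has no spread between rat tail libraries, so it cannot show that the calls held. Col6a2 and Col9a3 were not called there.

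Rat tail and bovine collagen were set against each other at the same gel concentration. The chains called higher against media were also called higher in rat tail than in bovine collagen, in a comparison that shares the rat tail libraries. Of the 17 members tested, 14 were called higher and 2 lower in rat tail collagen, against 28.4% higher and 26.4% lower over all genes tested, and 7 of the 14 passed the filter only through the rat tail libraries. Col1a1 had 0.335, 0.357 and 0.305 CPM in bovine collagen, all below the 3.83 CPM of its lowest rat tail library (log2 fold change 3.68 ± 0.22, adjusted p = 1.5e-07). Col27a1 had 1.0, 1.07 and 0.891 CPM in bovine collagen (log2 fold change 2.54 ± 0.17, adjusted p = 4.1e-07). Col5a1 had 0.251, 0.0793 and 0.280 CPM in bovine collagen (log2 fold change 4.38 ± 0.32, adjusted p = 6.7e-07). These were the members with the smallest adjusted p-values.

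Col5a1 was again a gene that passed the filter only through the rat tail libraries. Col18a1 had 1.06, 0.991 and 0.534 CPM in bovine collagen, and rat tail collagen was 5.56-fold higher (log2 fold change 2.48 ± 0.34, adjusted p = 8.4e-05). Col11a2 had 15.7, 14.4 and 21 CPM in bovine collagen, and rat tail collagen was 2.15-fold higher (log2 fold change 1.10 ± 0.14, adjusted p = 4.7e-05). Col5a2 had no count in bovine collagen, so its level was at least 15.9-fold higher in rat tail collagen, taken against a floor of 3 counts over the group. Col23a1 had 5.05, 5.43 and 7.0 CPM in bovine collagen and Col15a1 had 1.14, 1.03 and 0.992 CPM, and rat tail collagen was lower by log2 fold changes of -0.70 ± 0.16 (adjusted p = 0.0034) and -1.27 ± 0.24 (adjusted p = 7.7e-04). Without the 3 libraries of most ribosomal RNA, which left rat tail collagen 2 as the only rat tail library, Col15a1 stood at -1.29. It was not called there, nor were Col6a1, Col6a2 and Col9a3.

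Bovine collagen was compared with media in the same way, and no collagen chain gene was called in either direction. The edgeR test found 0 of 17 members, 1 at an unadjusted p under 0.05, and 4 of 19392 genes (0.0206%), all higher, against 4.18% of genes at an unadjusted p under 0.05. DESeq2 also called no member. For the 15 members with more than 3 counts in both groups, the log2 fold changes ran from -0.24 (Col15a1) to 0.98 (Col18a1). Col1a1 differed by 0.09 ± 0.27 and Col11a2 by 0.18 ± 0.14 on this scale. Col27a1 was the sole member whose groups did not overlap, with 0.41 ± 0.19, while 8.78% of all genes tested had groups apart in this comparison. The miss of the threshold does not show that the levels were equal.

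Media cells were compared with naive cells to ask what activation and culture changed. Most tested chains were lower in media, including Col23a1, Col1a1, Col11a2, Col4a1 and Col14a1, and Col15a1 was higher. Of 12 members past the filter, 1 was called higher and 8 lower (Col1a1, Col4a1, Col8a2, Col9a3, Col11a2, Col14a1, Col20a1 and Col23a1), against 31.6% higher and 29.2% lower over all 18610 genes tested. The median log2 fold change of the 12 members was -0.85, against -0.00 over all genes. Of the 8 lower members, Col4a1, Col8a2 and Col14a1 passed the filter only through the naive libraries, where they are high, so they had to differ, and the other 5 passed through either group.

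Col23a1 had 6.34, 6.30 and 7.07 CPM in media, against 11.9, 15.6 and 16.1 CPM in naive cells (log2 fold change -1.08 ± 0.14, adjusted p = 1.2e-04). Col20a1 had 2.29, 2.97 and 3.95 CPM in media, against 5.17, 4.88 and 5.33 CPM in naive cells (log2 fold change -0.68 ± 0.20, adjusted p = 0.017). Col1a1 had 0.286, 0.369 and 0.278 CPM in media, against 0.603, 0.656 and 0.723 CPM in naive cells (log2 fold change -1.02 ± 0.28, adjusted p = 0.011). In all 3 genes every media library was below every naive library. Col15a1 had 1.43, 1.31 and 0.983 CPM in media, against 0.472, 0.262 and 0.482 CPM in naive cells, which made it 3.18-fold higher in media (adjusted p = 0.0013). Without media 2 the call of Col20a1 was lost. The call of Col9a3 was lost without naive 1, naive 3, media 1 or media 3, with offsets for GC content and length, without a filter beyond 1 count and with the replicate block.

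The network chains Col4a1 and Col4a2, the ubiquitous chains of basement membrane collagen, have genes that start head to head on opposite strands. Col4a1 had 1, 0 and 1 counts in media, against 19, 10 and 11 in naive cells, and the level of naive cells was 24.2 times that of media (exact 95% interval 6.28 to 207). Col4a2 had no count in media, against 6, 6 and 7 in naive cells, at least 7.67-fold lower in media. In rat tail collagen Col4a1 had 14, 3 and 3 counts and Col4a2 had 1, 6 and 4, and in bovine collagen both had 0. Both chains were thus seen in every rat tail and naive library, with few counts.

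Col14a1, a fibril-associated chain that binds type I fibrils, lies at chr15:55307750-55520803 and had 253 of its 274 counts in naive cells, where its libraries differed strongly. It had 3, 1 and 0 counts in media, against 175, 33 and 45 in naive cells (log2 fold change -6.09 ± 0.98, adjusted p = 5.7e-04). Rat tail collagen had 9, 2 and 3 counts and bovine collagen 0, 0 and 3. Naive 1 stood apart, and myeloid markers were highest in the same library: Csf1r, the receptor for macrophage colony-stimulating factor, had 1622, 310 and 351 counts in the naive libraries, and Adgre1, which encodes F4/80, had 388, 52 and 80. The myeloid list of 7 genes (Lyz2, Cd14, Csf1r, Adgre1, Itgam, Cd68 and Fcgr1) summed to 9.11 to 9.94 CPM in media and 34.6 to 127 CPM in naive cells. Without naive 1 the log2 fold change of Col14a1 was -4.95 (adjusted p = 8.1e-05), and without media 1 it was -7.21 (adjusted p = 0.013). The part of other cell types in the Col14a1 counts was not tested.

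**Figure D3:**
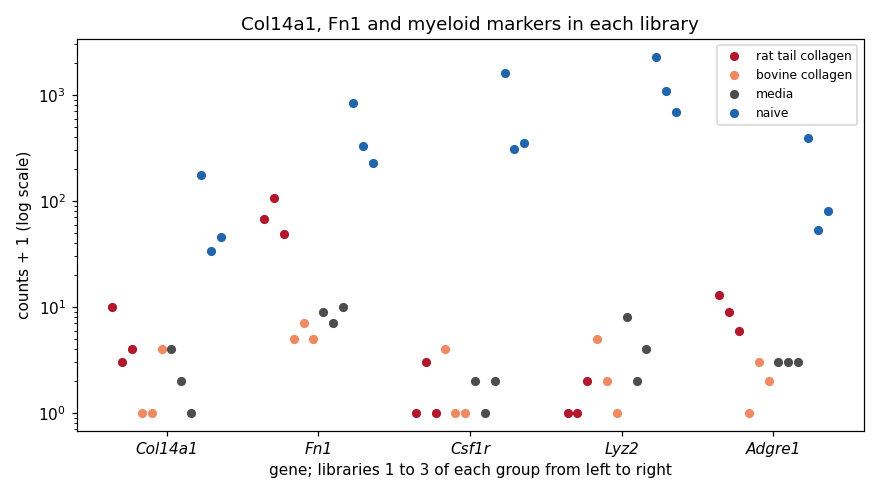
Counts plus 1 on a log axis of Col14a1, Fn1 and the myeloid markers Csf1r, Lyz2 and Adgre1 in the 12 libraries, coloured by group, with libraries 1 to 3 of each group from left to right. Naive 1 holds the highest point for all 5 genes, with 175 counts of Col14a1 against 33 and 45 in the other naive libraries. Stromal markers other than Fn1 are not drawn and were mixed in naive 1, 2 and 3. Pdgfrb had 40, 20 and 30 counts, while Dcn had 4, 3 and 12 and Fbln1 had 31, 29 and 63, both highest in naive 3.

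Rat tail collagen cells were also compared with naive cells. Col1a1, Col7a1, Col8a2, Col11a2 and Col18a1 were higher in rat tail collagen, and Col23a1, Col20a1 and Col14a1 were lower. The call of Col8a2 was lost without naive 2 or rat tail collagen 1, and with offsets for GC content and length. It was also lost without the 3 libraries of most ribosomal RNA, where rat tail collagen 2 was the only rat tail library. The call of Col14a1 was lost without a filter beyond 1 count. Of 18 members past the filter, 13 were called higher and 3 lower, against 36.5% and 35.4% of all 19449 genes tested, and the other 8 of the 13 higher members passed the filter only through the rat tail libraries, as Col14a1 did through the naive ones. Among members not tested, Col1a2, Col3a1, Col4a1 and Col6a6 had more counts in naive cells, where the level of Col1a2 was 2.80 times that of rat tail collagen (exact 95% interval 1.47 to 5.62) and that of Col4a1 2.18 times (1.24 to 3.93). The comparison shares the rat tail libraries with those against media and bovine collagen, so the values are given side by side. Col1a1 had a log2 fold change of 2.69 ± 0.19 against naive cells (adjusted p = 7.1e-07) and 3.76 against media. Col27a1 had 3.90 ± 0.30 (adjusted p = 1.6e-06) and 2.95, and Col5a1 had 3.54 ± 0.67 (adjusted p = 0.003) and 5.0. The naive libraries held 32, 13 and 1 counts of Col5a1, and its value was 4.67 without naive 1 and 2.95 without naive 3. Col9a2 had 5.29 ± 0.54 (adjusted p = 1.1e-05) and 2.64, with 1.97, 2.04 and 1.26 CPM in rat tail collagen, against 0, 0.0262 and 0.0964 CPM in naive cells. Naive cells held 5 counts of Col9a2 in all, and its value was 6.77 without naive 3.

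Col11a2 was 1.70-fold higher in rat tail collagen than in naive cells (log2 fold change 0.76 ± 0.11, adjusted p = 1.0e-04), and with offsets for GC content and length this was 0.27 (adjusted p = 0.0662). Col23a1 was 4.01-fold lower (log2 fold change -2.00 ± 0.16, adjusted p = 1.75e-06), and its mean was lowest in rat tail collagen, followed by bovine collagen, media and naive cells, although bovine collagen and media overlapped. Col15a1 had 0.479, 0.435 and 0.400 CPM in rat tail collagen, against 0.472, 0.262 and 0.482 CPM in naive cells, and was not called (log2 fold change 0.11 ± 0.32, adjusted p = 0.775). Its level was thus high in media and bovine collagen, and overlapping between rat tail collagen and naive cells. Col9a3 was not called either (0.05 ± 0.16, adjusted p = 0.796). Col14a1 remained lower (log2 fold change -4.22 ± 1.01, adjusted p = 0.0089), and it stood at -3.09 (adjusted p = 4.9e-04) without naive 1. Leaving out rat tail collagen 1 gave -5.24, and leaving out rat tail collagen 2 gave -3.59.

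Chains that share a trimer were compared per kilobase of exon, since the genes differ in length from 3.095 to 15.228 kb. The length is the union of all annotated exons of a gene, and the ratios depend on it. It was 6563 bases for Col1a1 and 12426 for Col1a2. The usual type I trimer holds chains of both Col1a1 and Col1a2, but the RNA levels of these genes were far from equal. Col1a1 stood at 0.653 CPM per kb in rat tail collagen and Col1a2 at 0.010, a ratio of 65.1, while this ratio was 23.8 in bovine collagen, 13.7 in media and 4.11 in naive cells. Col1a2 had 7, 3 and 4 counts in rat tail collagen, 0, 2 and 0 in bovine collagen, 1, 2 and 3 in media and 8, 13 and 15 in naive cells. Over the rat tail libraries Col1a2 had 14 counts and Col1a1 had 537. The rise of Col1a1 in rat tail collagen was therefore not matched by its partner, whose rat tail to media ratio was 2.59 (exact 95% interval 0.937 to 8.24). Col3a1, the type III chain that accompanies type I in most connective tissue, had 0, 1 and 0 counts in rat tail collagen, against 0, 0 and 0 in media and 8, 4 and 12 in naive cells.

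Col5a1 stood at 0.542 and Col5a2 at 0.055 CPM per kb in rat tail collagen, a ratio of 9.93. Col11a2 stood at 5.37 CPM per kb and Col11a1 at 0.017, a ratio of 312, so the abundant type XI chain was almost without its usual partner. Per length, Col11a2 ranked first of the 44 genes in all 4 groups, with 5.37 CPM per kb in rat tail collagen, 2.48 in bovine collagen, 2.19 in media and 3.18 in naive cells. Col23a1 ranked next in bovine collagen (1.02), media (1.15) and naive cells (2.53), and was the sixth in rat tail collagen (0.632). Col9a2 and Col9a3 were of like level in rat tail collagen, at 0.568 and 0.895 CPM per kb, whereas Col9a2 was at 0.013 and Col9a3 at 0.869 in naive cells, and the type IX partner Col9a1 had no count in any library. Col6a1, Col6a2 and Col6a3 stood at 0.107, 0.071 and 0.002 CPM per kb in rat tail collagen.

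**Figure D4:**
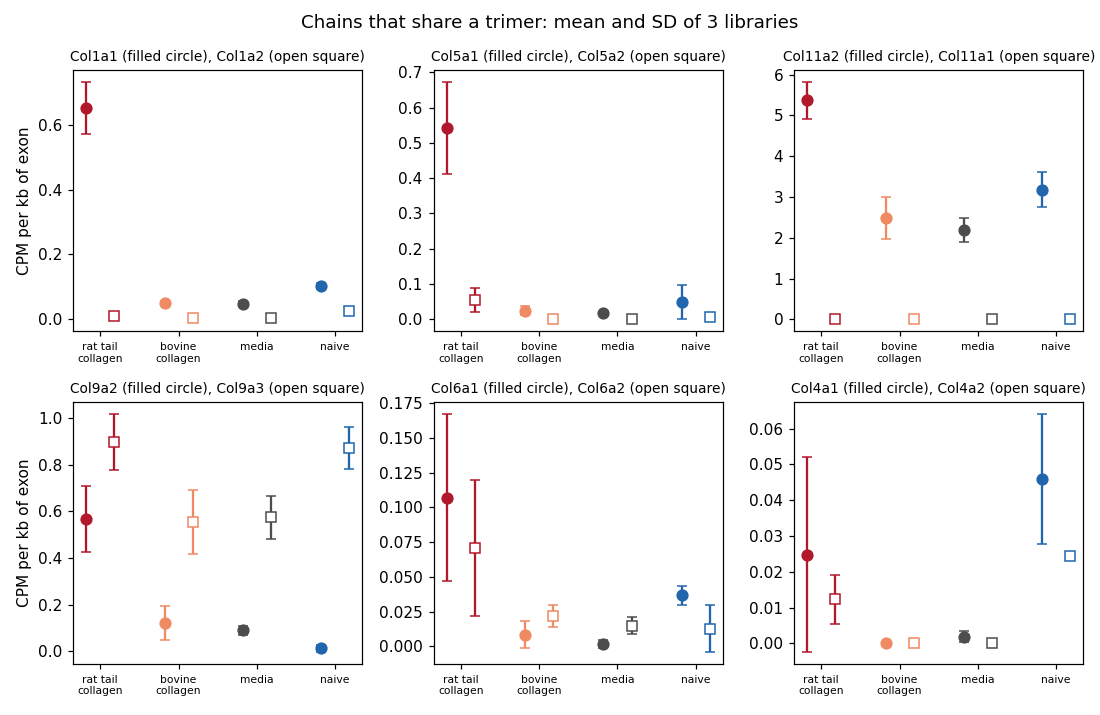
Level in CPM per kb of exon (vertical axes from 0) of 6 pairs of chains that share a trimer, as mean and SD of 3 libraries in rat tail collagen, bovine collagen, media and naive cells; filled circles are the chain named first and open squares its partner. Col1a1 is at 0.653 and Col1a2 at 0.010 in rat tail collagen, and Col9a2 differs between groups more than Col9a3.

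The nearest genes upstream on the same strand were read beside the most abundant chains. Col11a2 starts 1038 bases downstream of Rxrb, a nuclear receptor gene, which had 69.1 CPM in rat tail collagen, 74.3 in bovine collagen, 69.5 in media and 75.1 in naive cells. Rxrb differed by a log2 fold change of -0.02 between rat tail collagen and media, where Col11a2 differed by 1.29. Col7a1 starts 3963 bases downstream of Uqcrc1, a subunit gene of respiratory complex III, whose log2 fold change was -0.07. Col23a1 lies 8154 bases downstream of the kinase gene Clk4, which was at 0.17 in rat tail collagen against media and at -0.96 in media against naive cells.

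The members below the filter are given by counts. Col24a1, a fibrillar chain, had 36, 18 and 0 counts in rat tail collagen, 0 in all bovine collagen and media libraries, and 1, 1 and 2 in naive cells, so rat tail collagen was at least 20.01-fold higher than media, with rat tail collagen 3 at 0. Col5a3, the further chain of type V collagen, had 5, 25 and 12 counts in rat tail collagen, 0, 0 and 4 in bovine collagen, none in media and 1, 0 and 2 in naive cells (at least 15.6-fold higher than media). Col11a1 had 10, 18 and 2 counts in rat tail collagen, none in bovine collagen or media and 2, 0 and 3 in naive cells (at least 11.1-fold higher than media). Rat tail libraries differed among themselves in these genes. Rat tail collagen 2, the deepest of them, held the most counts of Col5a3 and Col11a1, but rat tail collagen 1 held the most of Col24a1.

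Col17a1, the transmembrane collagen of hemidesmosomes, had 24, 16 and 6 counts in rat tail collagen, 0, 1 and 0 in bovine collagen, 2, 7 and 2 in media and 7, 1 and 3 in naive cells (rat tail to media ratio 4.65, exact 95% interval 2.37 to 9.95). Col16a1, a fibril-associated chain, had 3, 14 and 3 counts in rat tail collagen, 0, 2 and 2 in bovine collagen, 1, 0 and 0 in media and 3, 4 and 5 in naive cells. Col6a6 ran the other way, with 0, 1 and 0 counts in rat tail collagen, 4, 3 and 5 in bovine collagen, 10, 5 and 2 in media and 9, 9 and 6 in naive cells, and its media to rat tail ratio was 15.3 (exact 95% interval 2.40 to 639). The remaining genes, Col4a3 to Col4a6, Col6a3 to Col6a5, Col8a1, Col10a1, Col13a1, Col19a1, Col22a1, Col25a1, Col26a1 and Col28a1, had between 3 and 18 counts over the 12 libraries. Fewer than 10 counts over the group were found for 18 of the 44 genes in rat tail collagen, 28 in bovine collagen, 28 in media and 18 in naive cells; a difference between 2 groups that are both so low is mostly not detectable at this depth.

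Genes of collagen synthesis and processing were followed as a list of 35. Several enzymes that modify or process collagen were higher in rat tail collagen against media. P4ha1, the lysyl hydroxylase gene Plod2 and the export factor genes Mia2 and Mia3 were lower. Of 24 list members tested, 11 were called higher and 6 lower, with a median log2 fold change of 0.43 against -0.01 over all genes, and 29.7% and 28.7% of all genes called. Of the 11, 4 (P3h2, Fkbp10, Lox and Loxl4) passed the filter only through the rat tail libraries. They had to differ, so the count and median give no support. Leaving out 1 rat tail or media library gave 10 to 11 higher and 4 to 5 lower, and Crtap was called in none of these fits. The calls of Plod2 and Creb3l1 were not kept in all of them, with edgeR adjusted p-values of up to 0.0651 and 0.148. The lysyl hydroxylase Plod1 had 34.8, 31.9 and 30.0 CPM in rat tail collagen, against 11.7, 10.7 and 10.3 CPM in media (log2 fold change 1.55 ± 0.09, adjusted p = 8.8e-08). The prolyl 3-hydroxylase P3h1 averaged 18 ± 1.48 CPM in rat tail collagen, against 5.49 ± 0.143 CPM in media (SD, n = 3), a log2 fold change of 1.70 ± 0.10 in edgeR. The procollagen protease gene Bmp1 averaged 4.36 ± 0.0886 CPM in rat tail collagen, against 0.489 ± 0.142 CPM in media (log2 fold change 3.13 ± 0.27). In these genes each rat tail library was above each media library.

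Lox, the lysyl oxidase that cross-links collagen, had 72, 106 and 43 counts in rat tail collagen and no count in the other 9 libraries, which made it at least 81.9-fold higher than media, at least 57.7-fold higher than bovine collagen and at least 67.7-fold higher than naive cells. P4ha1, the catalytic subunit of prolyl 4-hydroxylase, had 31.0, 31.7 and 33.1 CPM in rat tail collagen, against 67.3, 63.1 and 51.4 CPM in media (log2 fold change -0.93 ± 0.11, adjusted p = 2.5e-05). The other prolyl 4-hydroxylase genes did not share this: P4ha2 (0.34 ± 0.34) and P4hb (0.05 ± 0.10) were not called, and P4ha3 had 5, 12 and 11 counts in rat tail collagen and none in media, at least 10.4-fold higher. Mia3 and Mia2, which help load large cargo such as procollagen for export, were lower by log2 fold changes of -0.37 ± 0.07 and -0.48 ± 0.08, and the prolyl isomerase Ppib by -0.43 ± 0.10. Serpinh1, which encodes the collagen chaperone HSP47 and was chosen after its values were seen, had 2, 0 and 1 counts in rat tail collagen, 0, 1 and 1 in bovine collagen, 0 in all media libraries and 7, 7 and 5 in naive cells. This chaperone gene was at or near 0 in the group with the most collagen chain RNA.

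**Figure D5:**
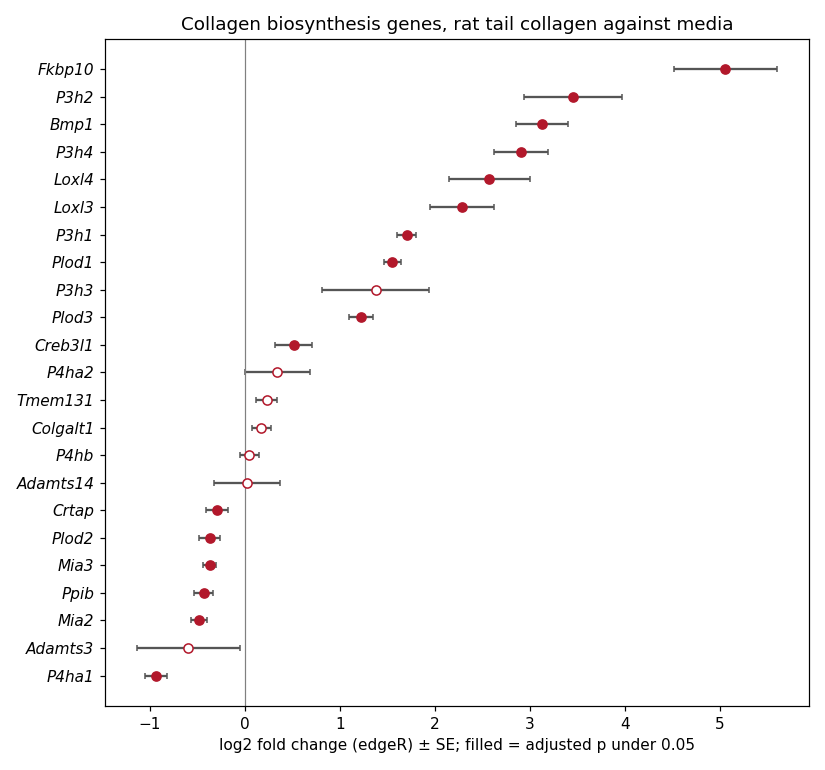
Log2 fold change with SE (horizontal axis) in rat tail collagen against media of the collagen synthesis and processing genes that passed the filter, filled where the adjusted p was under 0.05. Lox is not drawn, since it had no count in media; P4ha1 is the lowest at -0.93 and Fkbp10 the highest at 5.06.

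In rat tail against bovine collagen 11 list members were called higher and 6 lower (28.4% and 26.4% of all genes), with the same 4 genes passing only through the rat tail libraries, and in bovine collagen against media none of 24 was called, with 2 at an unadjusted p under 0.05. In media against naive cells 6 of 20 were higher and 5 lower, shares near those of all genes (31.6% and 29.2%). Plod2, the lysyl hydroxylase of collagen ends, averaged 19.0 ± 1.70 CPM in media, against 1.06 ± 0.208 CPM in naive cells (log2 fold change 4.23 ± 0.16, adjusted p = 5.4e-08). Creb3l1, a membrane-bound transcription factor of collagen-secreting cells, had a log2 fold change of 2.05 ± 0.31 (adjusted p = 3.6e-04), and the procollagen protease gene Adamts14 had -2.30 ± 0.19 (adjusted p = 8.4e-06). In rat tail collagen against naive cells 16 of 25 were higher and 5 lower (36.5% and 35.4% of all genes), and 7 of the 16 passed the filter only through the rat tail libraries.

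Markers of other cell types were read beside the collagen genes. The fibroblast and stromal list of 16 genes summed to 5.81 to 7.63 CPM in rat tail collagen, 3.85 to 7.10 in bovine collagen, 3.49 to 6.22 in media and 8.82 to 24.7 in naive cells. Lum, Postn, Dpt, Ccl19 and Tcf21 were at 0 in rat tail collagen, and the defining marker Dcn had 1, 0 and 0 counts there. Other markers of the list were higher there: Cxcl12 had 31, 21 and 5 counts in rat tail collagen and none in bovine collagen or media, Mmp2 had 12, 12 and 8 in rat tail collagen against 1, 3 and 0 in media, and Pdgfra had 5, 3 and 5 in rat tail collagen against none in media. Fn1, fibronectin, had 66, 106 and 48 counts in rat tail collagen, 4, 6 and 4 in bovine collagen, 8, 6 and 9 in media and 834, 326 and 229 in naive cells. Of 3 stromal markers tested against media, Fn1 (log2 fold change 3.37) and Pdgfrb (1.17) were called higher in rat tail collagen. Over all genes tested, 29.7% were called higher. Fn1 passed the filter only through the rat tail libraries, so its call gives no support. The other marker tested, Fbln1, was not called (log2 fold change -0.56, adjusted p = 0.161 in edgeR). Fbln1 had 2.51, 2.16 and 3.03 CPM in rat tail collagen, against 2.63, 2.95 and 5.64 CPM in media. Twist1 had 11, 13 and 13 counts in rat tail collagen and none in media or naive cells.

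The osteoblast and cartilage list of 6 genes summed to 31.7 to 41.3 CPM in rat tail collagen, 37.1 to 43.9 in bovine collagen, 30.3 to 40.7 in media and 10.3 to 16.1 in naive cells, nearly all of it from Runx2, which activated T cells also express. Within this list Acan, the cartilage proteoglycan aggrecan, had 33, 37 and 22 counts in rat tail collagen and none in the other 9 libraries, and Sp7, a factor of bone formation, had 8, 23 and 12 counts in rat tail collagen against 2 in naive 3 and none elsewhere. Ibsp was at 0 in rat tail collagen. The epithelial list of 6 genes summed to 22.2 to 31.5 CPM in rat tail collagen, 2.88 to 4.52 in bovine collagen, 2.78 to 3.57 in media and 8.86 to 11.4 in naive cells, with Epcam and Cdh1 called higher in rat tail collagen against media. The smooth muscle list of 6 genes summed to 0.904 to 1.17 CPM in rat tail collagen, 0.555 to 0.738 in bovine collagen, 0.592 to 0.769 in media and 0.918 to 1.47 in naive cells.

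The endothelial list of 7 genes summed to 67.6 to 73.6 CPM in rat tail collagen, 124 to 143 in bovine collagen, 130 to 146 in media and 139 to 169 in naive cells, mostly from Pecam1, which T cells express. The myeloid list summed to 17.5 to 24.7 CPM in rat tail collagen and 9.62 to 10.4 in bovine collagen. Cd68 (log2 fold change 1.58, adjusted p = 4.1e-05 in edgeR) was called higher in rat tail collagen against media and Itgam lower. Cd14 was also called higher (3.25, adjusted p = 1.2e-04), but it passed the filter only through the rat tail libraries and had to differ. Lyz2 and Csf1r were at 1 and 2 counts over the rat tail libraries. The B cell list of 5 genes summed to 7.81 to 9.16 CPM in rat tail collagen, 12.1 to 14.7 in bovine collagen, 12.6 to 15.3 in media and 17.1 to 22.1 in naive cells. Over all these lists, Fn1, Pdgfrb, Myh11, Acan, Plvap, Epcam, Cdh1, Cd14, Cd68 and Cd79a were called higher in rat tail collagen against media. Pecam1, Itgam and Cd79b were called lower, as were Cd3d, Cd3g, Cd2, Lck and Cd5 of the CD8 T cell list. The genes tested were 3 stromal, 1 smooth muscle, 2 bone and cartilage, 2 endothelial, 3 epithelial, 3 myeloid and 2 B cell markers. All 8 CD8 T cell markers were tested. Over all genes tested, 29.7% were called higher and 28.7% lower. Fn1, Myh11, Acan, Plvap and Cd14 passed the filter only through the rat tail libraries, so their calls give no support. The part of other cells in these results was not tested.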

How the data were processed

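Bulk RNA of 12 libraries of CD8+ T cells was analysed from 1 deposited table of raw read counts per gene symbol, made by the authors and used unchanged. The submitters' processing notes name featureCounts, HISAT2, Picard, MultiQC, SAMtools and FastQC as tools and mm10 and GRCm38 as builds, without role or order. Neither versions nor the strand setting or annotation release is given in the sources used here. Per the labels, 150 ng of RNA treated with DNase went into each library. Totals ran from 28483064 to 53138362 counts, and all within-group pairs of libraries differed beyond sampling noise.

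Counts were analysed with edgeR 4.0.16 in R 4.3.3: filterByExpr with the group, TMM factors, robust quasi-likelihood F test, Benjamini-Hochberg adjustment over all genes tested, and a call at an adjusted p under 0.05. The 9 day 4 libraries shared 1 fit, and media against naive and rat tail collagen against naive were fitted on their 6 libraries. Levels in CPM use TMM factors over all 12 libraries. A filter of this kind passes a gene that is high in a single group, so members that passed through rat tail libraries alone were counted apart. Genes under the filter are given by counts, with exact 95% intervals of ratios and a floor of 3 counts over a group, which cover counting error only. DESeq2 1.42.0, other scalings and filters, a replicate block and leaving out each library were alternatives. Removal of rRNA genes, offsets for GC content and length (known for 97.4% of genes), and leaving out the 3 libraries of most rRNA were chosen after seeing the data. The script was tested on simulated counts.

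The members, the synthesis list and the marker lists for CD8 T cells, stroma, smooth muscle, bone and cartilage, endothelium, epithelium, myeloid cells and B cells were chosen with earlier results of these data known. Members given with every library's value were called in at least 1 comparison with a mean of 0.5 CPM or more in a group, the 16 of highest mean. Of the synthesis list, named genes came from the 5 smallest adjusted p-values per direction and comparison. Col5a2, Fkbp10, Serpinh1, markers and members under the filter were named beyond these rules after their values were seen. Locations are from GENCODE M21 on GRCm38. Promoter sequences are from RefSeq on GRCm38.p6.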

Additional observations from a re-analysis of the deposited data

How the results depend on the processing

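In all 5 comparisons the collagen calls were the same genes with RLE factors, library totals, DESeq2 and removal of rRNA genes. Leaving out 1 library gave 13 to 18 higher and 2 lower members in rat tail collagen against media, 13 to 16 higher and 2 lower against bovine collagen, and 11 to 15 higher and 3 to 5 lower against naive cells. In media against naive cells it gave 1 to 3 higher and 8 lower members, and 5 to 8 lower members of the synthesis list. These totals also count members that the main fit did not test. Against bovine collagen, Col6a2 lost its call without bovine collagen 1, bovine collagen 3 or rat tail collagen 3, and with all 12 libraries in a fit. Col9a3 lost its call there without bovine collagen 1, bovine collagen 2, rat tail collagen 2 or rat tail collagen 3. A filter of 1 CPM in 3 libraries, which tests fewer genes, left 8 higher members in rat tail collagen against media, 8 against bovine collagen and 7 against naive cells, and 4 lower members in media against naive cells. Without a filter beyond 1 count, media had 3 higher and 17 lower members against naive cells, and rat tail collagen had 5 lower members against naive cells. For the synthesis list that setting gave 1 higher in bovine collagen against media, 12 lower in media against naive cells and 9 lower in rat tail collagen against naive cells. With all 12 libraries in a fit, media had 3 higher members and 8 lower genes of the synthesis list against naive cells, and with GC and length offsets it had 3 higher members. Without the 3 libraries of most rRNA, rat tail collagen 2 was the only library of its group. The numbers of calls in that setting are therefore not given. Against naive cells, Col5a2, Col6a1, Col6a2, Col8a2 and Col12a1 lost their higher calls there. In rat tail against bovine collagen, library totals gave 2 lower genes of the synthesis list. The cause was not tested. The sign of Col20a1 in rat tail collagen against media, which was not called, turned to -0.035 without a filter and -0.14 with offsets for GC and length, and ran from -0.18 to 0.24 when single libraries were left out. In rat tail collagen against naive cells, the uncalled Col9a3 turned to -0.26 with offsets for GC and length and ran from -0.040 to 0.17 when single libraries were left out, and Col15a1 ran from -0.13 to 0.25. There the calls of Col6a1, Col6a2 and Col8a2 were each lost without a single library. Same-numbered libraries deviated together with correlations of -0.025 to 0.444. Between bovine collagen and media they were 0.373, 0.029 and 0.444 for numbers 1, 2 and 3. Whether such libraries share an origin was not tested. The labels state no pairs, so the main fits used none. In bovine collagen against media, 1237 genes had an unadjusted p under 0.05 with the replicate block and 810 without it (edgeR). With the replicate block, media against naive cells had 7 lower members, since Col9a3 was not called (adjusted p = 0.0734), and no other collagen call changed. Depth limits the 27 members that never reached 0.5 CPM.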
